A study of Mus musculus with 18 samples.

Results

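The axon guidance genes described here are those of the mouse whose symbols name a semaphorin, a plexin, an ephrin, an Eph receptor, a Slit, a Robo, a netrin or an Unc5 receptor. By symbol alone, 66 genes of the 27179 in the deposited table matched, and 54 of them averaged 10 or more normalized counts across the 18 libraries. These 54 are 19 semaphorins, 8 plexins, 8 ephrins, 8 Eph receptors, 3 Slits, 2 Robos, 3 netrins and 3 Unc5 receptors. The 12 genes under that mean were Sema5b, Plxnb3, Epha3, Epha5, Epha6, Epha8, Epha10, Ephb1, Robo3, Robo4, Ntn5 and Unc5d. The nearest genes on either side of the limit were Robo3 (6.51) and Plxnb3 (9.07) below it and Sema3g (10.68) and Sema6a (11.54) above it.

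The RNA came from mesenchymal stem cells (MSCs), cultured stromal cells that attach to plastic when bone marrow is plated, of C57BL6 mice, which the study's methods give as male. Young MSCs were from mice of 6 weeks and old MSCs from mice of 18 to 24 months. Rejuvenated old MSCs were old MSCs kept for 7 days in a well with young MSCs behind a membrane with 0.4 µm pores, which passes secreted factors but no cells, at 100000 cells per well. Each group had 6 libraries, all labelled day 7, and young and old MSCs had no partner cells. Old MSCs paired with old MSCs were not analysed here, and so the presence of a second cell layer and the age of its donors cannot be told apart. The labels call the libraries biological replicates, and whether they came from separate animals is not given in the sources used here.

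Guidance cues were first known for steering growing axons and are also used by bone, vessel and immune cells. Semaphorins are secreted or membrane-bound ligands, mostly read by plexins, with neuropilins as partners for the secreted class. Ephrins and Eph receptors are both held at the cell surface and can signal in either cell of a contact. Slits are secreted and read by Robo receptors, and netrins are secreted and read by Dcc, neogenin and the Unc5 receptors. Among bone cells, ephrin B2 with EphB4 and semaphorin 3A are known for signals between osteoblasts and osteoclasts.

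Depth ran from 22936251 to 29559194 reads per library. All 14 stromal markers reached the mean of 10, and their summed level was at least 390620 normalized counts in every library. Thy1 was near 0 outside young MSCs, with 197.7, 1.19 and 4.08 in young, old and rejuvenated old MSCs. Nt5e had 295.0, 15.9 and 17.1 in the same order, and Eng had 163.3, 7340 and 7741. Of the 14, 5 were higher (35.7%, against 41.6% of all genes) and 9 were lower (64.3%, against 44.1%) in young than in old MSCs. Of the 14 macrophage and myeloid markers, 13 were lower (92.9%, against 44.1% of all genes) and 1 was higher (7.1%, against 41.6%) in young than in old MSCs. Their summed levels were 826 to 940.2 in young, 6120 to 7076 in old and 5856 to 6940 in rejuvenated old MSCs. Ptprc and Adgre1 were at 0 in every young library. All 7 osteoblast markers were lower in young than in old MSCs (44.1% of all genes). Summed, they had 4452 to 4699 in young and 114584 to 123320 in old MSCs, and rejuvenated old MSCs lay at 66414 to 94345. Most of this sum was Spp1, with 2694, 112981 and 75480 in young, old and rejuvenated old MSCs. All 6 adipocyte markers were lower in young than in old MSCs (44.1% of all genes), with Plin1 at 0 in every young library. Summed, they had 16838 to 19369 in young, 43179 to 45578 in old and 47581 to 60623 in rejuvenated old MSCs. Most of that sum was Lpl, with 17251, 32968 and 40583 in the same order of groups as Spp1. After co-culture 5 of the 7 osteoblast markers fell (71.4%, against 20.6% of all genes) and 1 rose (14.3%, against 21.0%). Of the 6 adipocyte markers 4 rose (66.7%) and 1 fell (16.7%), and of the 14 myeloid markers 1 rose and 1 fell (7.1% each). Of 10 endothelial markers only 4 reached the mean of 10, with Pecam1 and Cdh5 below it. Of these 4, 3 were higher (75.0%, against 41.6% of all genes) and 1 was lower (25.0%, against 44.1%) in young than in old MSCs. Kdr was among the higher ones (85.7 against 9.12). Of 8 neural and Schwann cell markers only 3 reached that mean, with Sox10 at 0 in old and rejuvenated old MSCs. Of these 3, 1 was higher (33.3%, against 41.6% of all genes) and 2 were lower (66.7%, against 44.1%) in young than in old MSCs. The lower ones were S100b (21.3, 556.5 and 310.7 in young, old and rejuvenated old MSCs) and Tubb3 (30.4, 208.0 and 345.2). The mice are given as male, but 4 genes of the Y chromosome (Kdm5d, Eif2s3y, Uty and Ddx3y) were almost without reads in young MSCs. They summed to 0 to 5.15 normalized counts there, against 5035 to 5604 in old and 4898 to 5980 in rejuvenated old MSCs. Xist, transcribed from an inactive X chromosome, had 21.2 to 41.2 in young MSCs and at most 14.4 in the others, which is low in every group. These values do not settle the sex of the young cells, which was not tested. Age and whatever removed the Y-linked reads therefore cannot be told apart. Whole chromosomes were also shifted between young and old MSCs, with median log2 fold changes of -0.69 on chromosome 1, -0.75 on chromosome 16, -0.46 on chromosome 12 and 0.61 on chromosome 7, against -0.02 over all genes. The part of these differences in the results below was not tested, and in bulk RNA fewer cells of a type and less RNA per cell cannot be told apart.

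Co-culture was followed by lower levels of many guidance genes. In rejuvenated old against old MSCs, 34 of the 54 genes differed (63.0%, against 41.6% of the 14353 genes tested), with the test made by limma on log2(normalized count + 1) and a call at a Benjamini-Hochberg adjusted p under 0.05. Of the 54, 10 rose (18.5%, against 21.0% of all genes) and 24 fell (44.4%, against 20.6%). The median log2 fold change was -0.23, against 0.01 over all genes, and the median of the absolute values was 0.32, against 0.15. The 6 libraries of each group did not overlap for 25 genes (46.3%, against 22.0%). These changes were mostly modest, since Sema3f alone was called with a change of 1 or more on the log2 scale in either direction (2.34% of all genes). Of the 14 stromal markers, 3 rose (21.4%) and 6 fell (42.9%) after co-culture, shares near those of the guidance genes.

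Young and old MSCs differed far more, as did genes in general. Between them, 50 of the 54 guidance genes were called (85.7% of all genes), with 21 higher in young MSCs (41.6% of all genes) and 29 lower (44.1%). The groups did not overlap for 46 genes (85.2%, against 73.9%), and 29 differed by 1 or more on the log2 scale (31.9%). The median of the absolute log2 fold changes was 1.15 in the guidance genes and 0.60 over all genes. Sema4a, Unc5c, Plxna4 and Efna4 were not called. Against rejuvenated old MSCs, young MSCs differed in all 54 genes (85.6% of all genes), with 23 higher (41.5%) and 31 lower (44.1%), 42 without overlap (70.5%) and 29 that differed by 1 or more on the log2 scale (31.0%). The comparisons with old MSCs share the old libraries, so their values are set side by side below and not correlated.

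**Figure D1:**
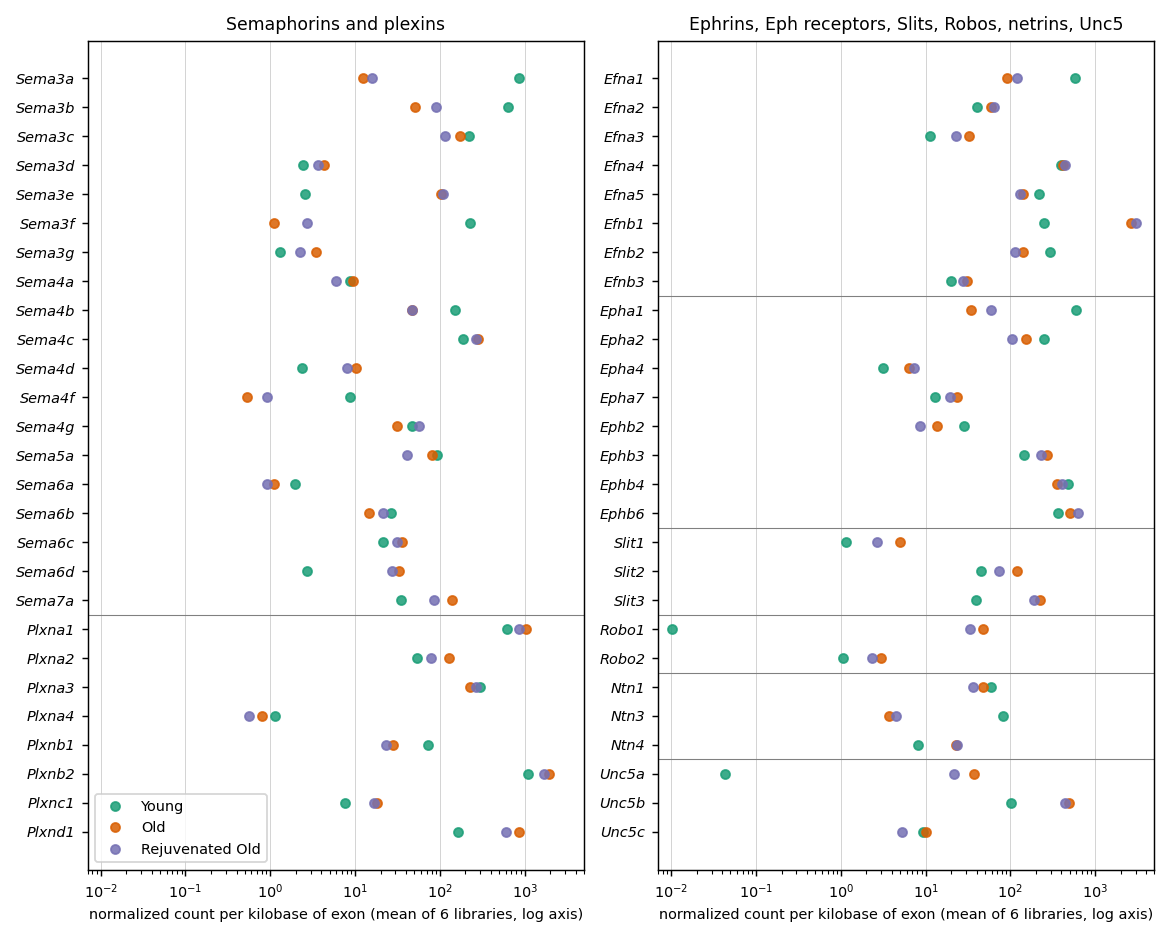
Mean normalized count per kilobase of exon (log axis) of the 54 guidance genes in young, old and rejuvenated old MSCs (6 libraries each), with grey lines between families. Robo1 (0.0101) and Unc5a (0.0435) lie far to the left in young MSCs, while Sema3f and Sema3a lie far to the right of their old and rejuvenated old levels, and for most genes the rejuvenated old point lies close to the old one.

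The semaphorins were, summed per kilobase of exon, 2.47 times higher in young than in old MSCs (2546 ± 29.3 against 1031 ± 17.4, SD, n = 6), and rejuvenated old MSCs lay at 929.2 ± 34.3 (SD, n = 6). Per kilobase, the secreted class 3 genes Sema3a (870.1) and Sema3b (631.6) led the family in young MSCs, and Sema4c (279.4) and Sema3c (173.4) led it in old MSCs. Sema4c (263.9) also led in rejuvenated old MSCs, where the next genes, Sema3c (115.4) and Sema3e (109.7), overlapped between libraries.

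Sema3a, a secreted repellent read by neuropilin 1 and the A plexins, had the highest mean of the semaphorins per kilobase. Its normalized counts were 11373, 12003, 12227, 12318, 12275 and 12204 in young MSCs and 206.5, 182.2, 168.0, 151.8, 179.6 and 132.8 in old MSCs. In rejuvenated old MSCs they were 513.9, 169.0, 159.8, 170.0, 138.8 and 151.9. All young libraries thus lay far above the others, by 6.15 ± 0.21 (SE) on the log2 scale against old MSCs (limma, adjusted p = 4.74e-18), a ratio of means of 70.9. Rejuvenated old and old MSCs overlapped and were not called (0.19 ± 0.21, SE, limma, adjusted p = 0.504), and without rejuvenated old replicate 1 the difference was -0.10.

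Sema3e, which binds plexin D1 without a neuropilin, went the other way although it lies only 421.8 kb from Sema3a on chromosome 5. Its counts were 19.6, 17.9, 27.9, 34.4, 20.3 and 21.6 in young MSCs, 996.8, 1057, 999.7, 951.7, 905.2 and 799.4 in old MSCs, and 1019, 1054, 1003, 1102, 921.0 and 1012 in rejuvenated old MSCs. The young libraries lay 40.3 times below the old ones (-5.30 ± 0.11, SE, limma, adjusted p = 1.05e-21), while old and rejuvenated old libraries overlapped (0.10 ± 0.11, SE, adjusted p = 0.51 by limma). Sema3d, 535.9 kb on the other side of Sema3a, was low in all groups (21.0, 37.4 and 31.5 normalized counts in young, old and rejuvenated old MSCs) and was lower in young than in old MSCs (-0.84). Neighbouring class 3 genes on this chromosome therefore differed in both directions between young and old MSCs.

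The sequence around a RefSeq start of both genes is shown to place these neighbours (GRCm38.p6, 250 bases before to 50 after the start, plus strand), with CG dinucleotides, the sites of DNA methylation, in capitals. The window of Sema3a is chr5:13396534-13396833, at a start 271962 bases inside the gene, and that of Sema3e is chr5:14025026-14025325, at the first base of the gene.
Sema3a: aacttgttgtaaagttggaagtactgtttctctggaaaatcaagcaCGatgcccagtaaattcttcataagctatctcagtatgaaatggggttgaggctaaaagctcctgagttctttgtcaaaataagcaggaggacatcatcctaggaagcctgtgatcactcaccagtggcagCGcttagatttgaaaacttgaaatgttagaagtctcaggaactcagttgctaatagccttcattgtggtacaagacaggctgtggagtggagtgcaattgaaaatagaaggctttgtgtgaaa
Sema3e: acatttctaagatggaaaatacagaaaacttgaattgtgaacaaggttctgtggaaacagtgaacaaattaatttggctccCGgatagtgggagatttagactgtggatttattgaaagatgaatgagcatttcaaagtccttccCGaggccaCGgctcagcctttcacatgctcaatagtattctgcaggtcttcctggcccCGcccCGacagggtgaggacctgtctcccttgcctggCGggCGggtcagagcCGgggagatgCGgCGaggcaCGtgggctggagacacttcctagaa
Sema3a had 2 CG dinucleotides in its window and Sema3e had 11. The table held 62 windows of 46 guidance genes. Taking each gene's window with the most, the median was 23 over the guidance genes and 22 over 10951 genes tested, and 89.1% against 83.1% of genes had at least 10. Counted by single windows, 75.8% of the 62 and 43.5% of all 32851 windows in the table had at least 10. The latter include windows of genes that were not tested here, so these shares are of unlike sets. Methylation was not measured. Entries were missing for Sema3b, Sema3f, Sema6a, Plxna1, Plxna4, Efnb3, Slit1 and Ntn1.

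Sema3b and Sema3f, secreted semaphorins that lie 72.3 kb apart on chromosome 9, were higher in young than in old MSCs and rose in old MSCs after co-culture. Sema3f counts were 1277, 1158, 1155, 1218, 1207 and 1147 in young MSCs, 4.30, 3.94, 5.39, 8.18, 3.01 and 9.62 in old MSCs, and 35.0, 10.4, 9.51, 10.6, 9.31 and 10.4 in rejuvenated old MSCs. Young MSCs stood 208 times above old MSCs (7.56 ± 0.26, SE, limma, adjusted p = 9.22e-18). The rise after co-culture was 1.08 ± 0.26 (SE, limma, adjusted p = 0.00205), but the groups overlapped and replicate 1 of the rejuvenated old MSCs stood far above the others. Without that library the rise was 0.80 (limma, adjusted p = 0.00179).

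Sema3b was higher and steadier. In young MSCs it had 3044, 3120, 3055, 3002, 3073 and 2808 normalized counts, in old MSCs 245.2, 243.2, 221.9, 232.7, 250.9 and 278.0, and in rejuvenated old MSCs 469.6, 441.8, 379.6, 424.0, 434.0 and 437.7. No groups overlapped. Young MSCs were 12.3 times above old MSCs (3.62 ± 0.05, SE), and rejuvenated old MSCs 1.76 times above them (0.81 ± 0.05, SE, limma, adjusted p = 5.07e-11). Of the other 16 genes tested within 200 kb of this pair, 9 were higher (41.6% of all genes) and 7 were lower (44.1%) in young than in old MSCs.

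Rejuvenated old replicate 1 stood apart in the genes that were far higher in young MSCs. Over the 137 genes at least 50 times higher in young than in old MSCs with a young mean of at least 100, this library lay 2.14% of the way from the old to the young mean as a median, and the other 5 lay at 0.00 to 0.10%. For Sema3a it lay at 2.89% and for Sema3f at 2.46%, while the other libraries lay at -0.26 to 0.00% and 0.30 to 0.41%. For Sema3b all libraries lay above the old mean, at 8.09% in replicate 1 and 4.85 to 7.09% in the others. Epha1 lay at 6.53% in replicate 1 and at 2.96 to 4.96% in the others. Without this library, 33 guidance genes were called after co-culture, with 10 higher and 23 lower. This measure was chosen after the values were seen, and what sets the library apart was not tested.

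**Figure D2:**
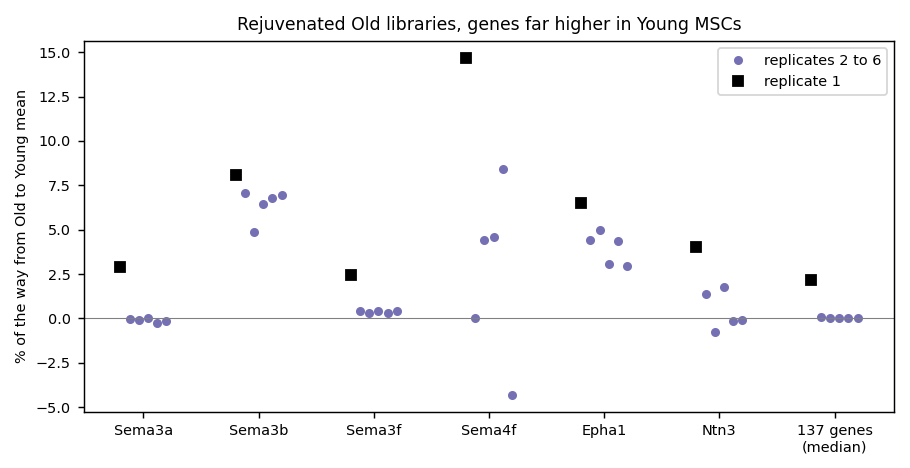
Position of each rejuvenated old library between the old mean (0%) and the young mean (100%) for the 6 guidance genes at least 10 times higher in young MSCs, and as the median of 137 genes at least 50 times higher there. Replicate 1 (black squares) lies at 2.14% for the median and the other 5 libraries at 0.00 to 0.10%, while all 6 libraries lie above 0 for Sema3b, Sema3f and Epha1.

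After co-culture 4 of the 19 semaphorins rose and 4 fell (21.1% each), close to the 21.0% and 20.6% of all genes. Sema5a, a transmembrane semaphorin with thrombospondin repeats, had the largest fall, with counts of 1514, 1440, 1671, 1547, 1503 and 1455 in old MSCs and 752.8, 884.5, 699.3, 750.4, 746.9 and 800.0 in rejuvenated old MSCs. It fell by 0.98 ± 0.05 on the log2 scale, to 1.97 times lower (SE, limma, adjusted p = 6.82e-13). The young libraries, at 1797, 1669, 1694, 1573, 1802 and 1722, overlapped with the old ones and were slightly higher (0.17, or -0.03 once the median of its chromosome was subtracted). All rejuvenated old libraries lay below all libraries of the other groups.

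Sema4g, a transmembrane semaphorin of class 4, rose from 291.4, 227.5, 253.1, 316.3, 263.9 and 282.8 in old MSCs to 447.9, 502.2, 437.7, 426.8, 566.2 and 591.5 in rejuvenated old MSCs. The rise was 0.86 ± 0.09 (SE, limma, adjusted p = 1.41e-07) with no overlap. In young MSCs it had 470.1, 341.7, 400.0, 428.2, 422.1 and 383.1 counts, above old MSCs (0.58) and, with overlap, below rejuvenated old MSCs (-0.28, limma, adjusted p = 0.00843). With every library scaled to the same total, the latter was not called (-0.19, limma, adjusted p = 0.0705). Sema6b, a class 6 gene, rose after co-culture as well (106.0, 57.8 and 85.2 in young, old and rejuvenated old MSCs, 0.55).

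Sema3c, Sema7a and Sema4a fell after co-culture. Sema3c had 1588, 1238 and 824 normalized counts in young, old and rejuvenated old MSCs (-0.59). Sema7a, which is anchored by a lipid and binds plexin C1 and integrins, had 114.3, 456.6 and 278.9 (-0.71). Sema4a had 46.6, 51.1 and 32.3 in the same order (-0.61), with overlap between groups.

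The remaining semaphorins were not called between rejuvenated old and old MSCs but most differed between young and old MSCs. Sema4f was the largest of these, with 54.4, 33.9, 58.1, 54.7, 43.7 and 35.0 normalized counts in young MSCs, 0.00, 2.95, 4.31, 1.82, 5.02 and 2.89 in old MSCs, and 9.27, 2.83, 4.76, 4.83, 6.52 and 0.943 in rejuvenated old MSCs. It was higher in young than in old MSCs by 3.80 ± 0.40 (SE, limma, adjusted p = 6.74e-09), with no overlap, from counts close to the floor of 3 reads in old MSCs. Sema4b had 855.3 in young against 265.3 in old and 265.1 in rejuvenated old MSCs, and its difference of 1.69 between young and old MSCs became 1.08 once the median of chromosome 7 was subtracted. Sema6a had 17.0, 9.62 and 7.98.

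Lower in young MSCs were Sema6d, Sema4d, Sema4c, Sema6c and Sema3g. Sema6d, a membrane ligand of plexin A1, had 29.1, 345.6 and 286.4 normalized counts in young, old and rejuvenated old MSCs. Sema4d, the ligand of plexin B1 that osteoclasts are known to make, had 18.4, 79.0 and 62.2. Sema6c had 125.4, 211.8 and 184.2, and Sema3g had 5.92, 15.8 and 10.3. Sema4c, read by plexin B2, had 865.8, 1283 and 1212, and its young-to-old difference (-0.57) turned to 0.12 once the median of chromosome 1 was subtracted. After co-culture these 5 genes differed by -0.57 to -0.08 and were not called. The old and rejuvenated old libraries of Sema4d nevertheless did not overlap (-0.34, limma, adjusted p = 0.0704).

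**Figure D3:**
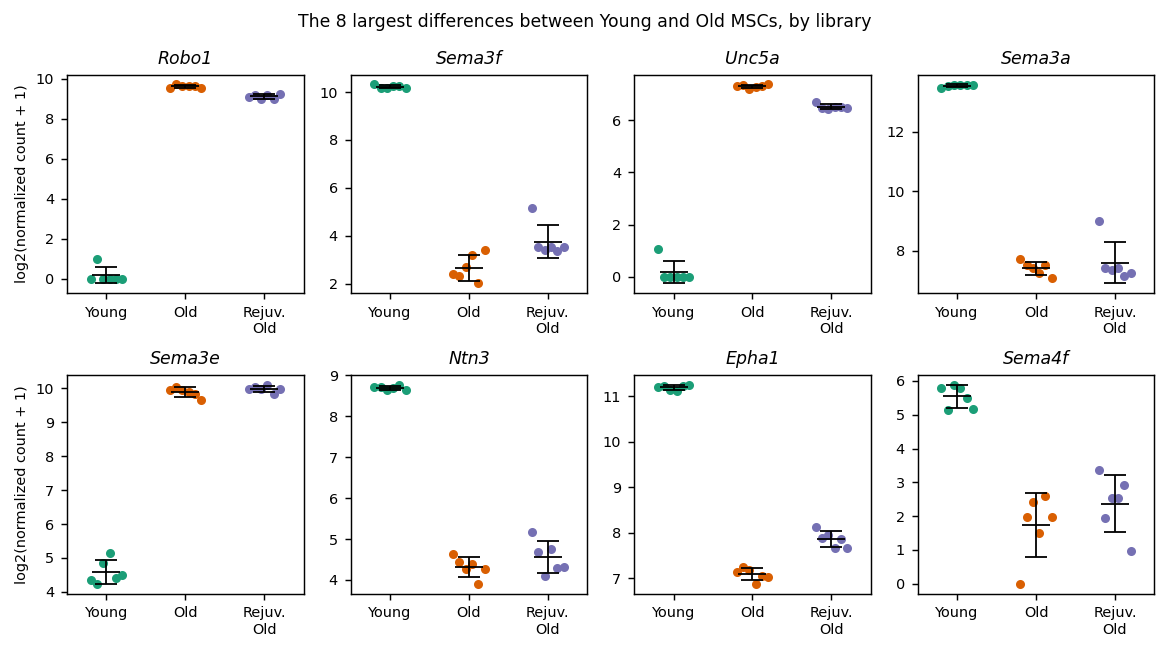
log2(normalized count + 1) of the 8 called guidance genes with the largest absolute log2 fold change between young and old MSCs, 1 point per library, with the mean and SD of 6 libraries in black. Young libraries are separate from old libraries in all 8, with Robo1, Unc5a and Sema3e lower and the other 5 genes higher in young MSCs.

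The plexins, the semaphorin receptors, were lower in young than in old MSCs when summed per kilobase (2333 ± 66.0 against 4240 ± 120.3, SD, n = 6), and stood between them in rejuvenated old MSCs (3526 ± 117.7, SD, n = 6). Of the 8, 5 fell (62.5%, against 20.6% of all genes) and 1 rose (12.5%, against 21.0%) after co-culture. Plxnb2, which Sema4c binds, was the highest plexin in every group. Its counts were 8707, 8494, 8587, 8602, 8642 and 8413 in young MSCs, 15289, 14712, 14631, 15823, 14844 and 15074 in old MSCs, and 12922, 13455, 12967, 13279, 12560 and 12816 in rejuvenated old MSCs. The 3 groups did not overlap, with log2 fold changes of -0.81 ± 0.03 in young MSCs and -0.21 ± 0.03 in rejuvenated old MSCs against old MSCs (SE, limma, adjusted p = 1.82e-18 and 8.23e-07).

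Plxna1, Plxna2 and Plxnd1 were lower in both young and rejuvenated old MSCs, again without overlap with old MSCs. Plxnd1, the receptor of Sema3e, had 1207, 6261 and 4447 normalized counts in young, old and rejuvenated old MSCs, which is -2.37 and -0.50 against old MSCs. Plxna1, a partner of neuropilins, had 5618, 9352 and 7686 (-0.74 and -0.28). Plxna2 had 919.1, 2180 and 1336 (-1.25 and -0.71), and lies on chromosome 1, whose median was -0.69 in young MSCs. Once that median was subtracted, its young-to-old difference was -0.56 and that between young and rejuvenated old MSCs turned from -0.54 to 0.15.

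Plxnb1, the receptor of Sema4d, was higher in young MSCs and fell after co-culture (704.1, 267.7 and 219.5, or 1.39 and -0.29). Plxna3, the partner of neuropilin 2, was higher in both (2369, 1771 and 2094, or 0.42 and 0.24), and lies on the X chromosome, whose median was 0.16 in young against old MSCs. Less that median, Plxna3 differed by 0.26 between young and old MSCs, and by 0.01 between young and rejuvenated old MSCs with the median of that comparison subtracted. Plxnc1, the receptor of Sema7a, was lower in young MSCs (64.1, 151.3 and 141.0) and was not called after co-culture (-0.10). Plxna4 was low throughout (16, 11.4 and 7.99) and was not called against old MSCs in either comparison.

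Neuropilins bind class 3 semaphorins for the plexins, and both were lower in young and rejuvenated old MSCs. Nrp1 had 1746, 6209 and 5211 normalized counts in young, old and rejuvenated old MSCs, and Nrp2 had 1843, 5247 and 2869. After co-culture Nrp1 fell by 0.25 and Nrp2 fell by 0.87 on the log2 scale (limma, adjusted p = 1.39e-05 and 2.45e-11).

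The ephrins were dominated by Efnb1, a transmembrane ephrin encoded on the X chromosome, in old MSCs. Per kilobase it stood at 2639 in old and 3056 in rejuvenated old MSCs, above every other ephrin, and at 249.3 in young MSCs, where Efna1 (575.4) led. Its counts were 907.6, 803.8, 792.2, 880.7, 865.4 and 913.4 in young MSCs, 8905, 8976, 8977, 9675, 9214 and 8915 in old MSCs, and 10347, 10835, 10401, 10786, 10133 and 10799 in rejuvenated old MSCs. Young MSCs were 10.6 times lower than old MSCs (-3.40 ± 0.04, SE, limma, adjusted p = 3.87e-27), and rejuvenated old MSCs were higher than old MSCs by 0.21 ± 0.04 (SE, limma, adjusted p = 5.42e-05), with no overlap. Efnb1 thus went further from the young level after co-culture.

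Efna1, a lipid-anchored ephrin, was 6.25 times higher in young than in old MSCs and rose after co-culture (1053, 168.5 and 217.3 normalized counts, or 2.64 and 0.36). Efna3 and Efna4 lie 32.9 and 52.4 kb from it on chromosome 3. Efna3 was lower in young and in rejuvenated old MSCs (27.7, 78.1 and 55.8, or -1.48 and -0.49), and Efna4 was not called against old MSCs in either comparison (636.8, 674.9 and 711.1). Of the other 26 genes tested within 200 kb of these ephrins, 6 were higher (41.6% of all genes), 12 were lower (44.1%) and 8 were not called in young against old MSCs.

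Efnb2, the ligand of EphB4, was 2.07 times higher in young than in old MSCs and fell after co-culture (2023, 975.4 and 783.3, or 1.05 and -0.33). Efna5 had 877.3, 563.7 and 520.8, and its difference of 0.64 between young and old MSCs became 0.42 less the median of its chromosome. Its small fall after co-culture (-0.12, limma, adjusted p = 0.0272) was not called without old replicate 6 (adjusted p = 0.055 by limma) or without rejuvenated old replicate 2 or 3 (0.0596 and 0.0717). Efna2 (86.5, 125.4 and 137.6) and Efnb3 (63.2, 97.1 and 86.8) were lower in young than in old MSCs (-0.53 and -0.63) and were not called after co-culture. Less the median of its chromosome, Efna2 differed by -0.34.

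The Eph receptors are the receptor tyrosine kinases for ephrins, and 7 of the 8 differed after co-culture (41.6% of all genes), with 3 higher (21.0% of all genes) and 4 lower (20.6%). Epha1 changed most. Its counts were 2368, 2393, 2271, 2242, 2396 and 2448 in young MSCs, 138.7, 151.6, 144.3, 116.3, 131.5 and 129.9 in old MSCs, and 280.1, 233.1, 245.5, 202.8, 231.9 and 200.9 in rejuvenated old MSCs. The groups did not overlap, with young MSCs 17.4 times (4.11 ± 0.07, SE, limma, adjusted p = 2.86e-23) and rejuvenated old MSCs 1.72 times (0.77 ± 0.07, SE, limma, adjusted p = 1.93e-08) above old MSCs.

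Epha1 shares 236 bases (6.0% of its exon length) with Zyx, a focal adhesion gene on the opposite strand, which had 73080, 16066 and 19666 normalized counts in young, old and rejuvenated old MSCs. Whether counting used the strand is not given in the sources used here, so reads of the pair may be mixed. Per 1000 counts of Zyx, Epha1 had 32.2 ± 1.08, 8.43 ± 0.715 and 11.8 ± 1.2 counts in young, old and rejuvenated old MSCs (SD, n = 6). Epha1 was thus not a fixed share of Zyx, but Zyx was also higher in young (2.19) and rejuvenated old MSCs (0.29) than in old MSCs. A varying share does not tell how many reads of Epha1 came from Zyx, which was not tested.

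Ephb6, an Eph receptor without kinase activity, was the highest of the family per kilobase over all libraries. Its counts were 1504, 1420, 1348, 1326, 1406 and 1342 in young MSCs, 1786, 1875, 1941, 1975, 2010 and 2004 in old MSCs, and 2279, 2423, 2561, 2290, 2316 and 2236 in rejuvenated old MSCs. It was lower in young MSCs (-0.47 ± 0.04, SE) and higher in rejuvenated old MSCs (0.28 ± 0.04, SE, limma, adjusted p = 5.93e-06), so that like Efnb1 it moved away from the young level. Ephb4, the receptor of Efnb2, was higher in both (2218, 1635 and 1912, or 0.44 and 0.23).

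Epha2 and Ephb2 were higher in young than in old MSCs and fell after co-culture. Epha2 had 1157, 711.7 and 492.0 normalized counts (0.70 and -0.54), and Ephb2 had 359.5, 173.1 and 108.9 (1.05 and -0.66). Ephb3 was lower in both (956.1, 1782 and 1540, or -0.90 and -0.21), on the chromosome with a median of -0.75. Once the median was subtracted, its young-to-old difference was -0.15, and that between young and rejuvenated old MSCs turned from -0.69 to 0.08. Epha4 was lower in young MSCs (25.5, 51.6 and 58.4, or -0.99 and, less the median of chromosome 1, -0.30). Epha7 had 128.9, 230.6 and 191.8, and its fall after co-culture (-0.26, limma, adjusted p = 0.0471) was not called in 11 of the 18 fits that left out 1 library, in which p reached 0.129 without old replicate 2.

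**Figure D4:**
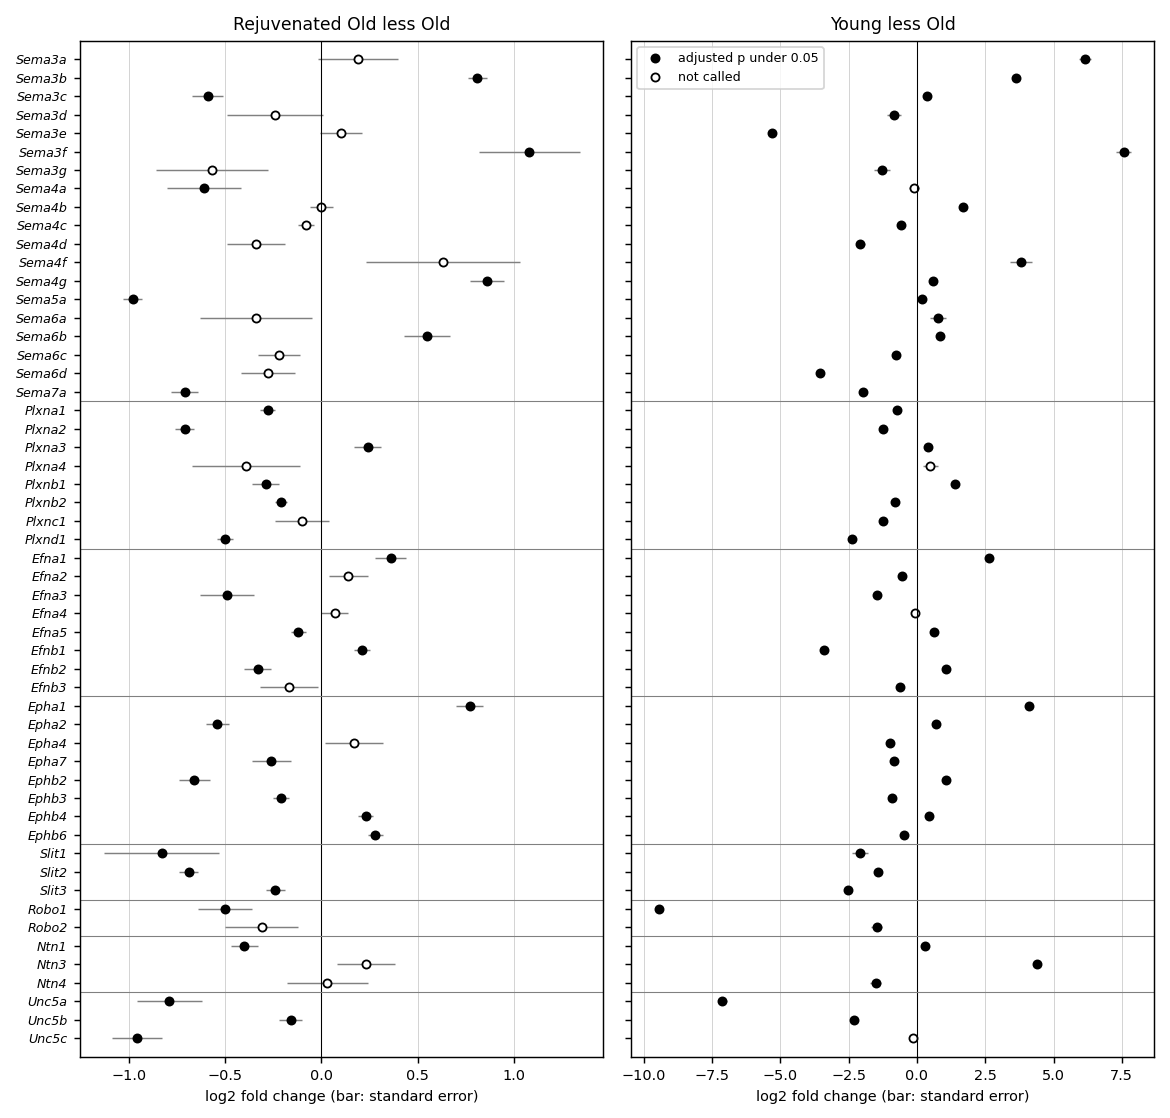
Log2 fold change with its standard error of each guidance gene in rejuvenated old against old MSCs (left) and young against old MSCs (right), filled where the adjusted p was under 0.05, on axes of different range. On the left 24 filled points lie below 0 and 10 above it, within -0.98 to 1.08, and on the right they run from -9.45 (Robo1) to 7.56 (Sema3f).

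The 3 Slits and Robo1 were lower in young and in rejuvenated old than in old MSCs. Of all genes, 44.1% were lower in young and 20.6% in rejuvenated old than in old MSCs. Summed per kilobase, the 3 Slits stood at 85.8 ± 2.57, 350.9 ± 14.3 and 268.0 ± 19.8 in young, old and rejuvenated old MSCs (SD, n = 6). Slit3, the highest of them over all libraries, had 235.1, 235.1, 223.5, 264.2, 246.2 and 233.7 normalized counts in young MSCs, 1394, 1446, 1326, 1432, 1339 and 1278 in old MSCs, and 1064, 1201, 1017, 1247, 1176 and 1247 in rejuvenated old MSCs. It was 5.71 times lower in young (-2.51 ± 0.05, SE, limma, adjusted p = 1.01e-21) and 1.18 times lower after co-culture (-0.24 ± 0.05, SE, limma, adjusted p = 0.000916), with no overlap.

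Slit2 had 1148, 3060 and 1893 normalized counts in young, old and rejuvenated old MSCs (-1.41 and -0.69). Slit1 had few reads, with 7.62, 7.97, 8.94, 6.07, 9.59 and 1.03 in young MSCs, 21.5, 23.6, 28.0, 29.1, 41.1 and 31.7 in old MSCs, and 16.5, 15.1, 17.1, 15.5, 12.1 and 17.9 in rejuvenated old MSCs. The groups did not overlap and the fall after co-culture was 0.83 ± 0.30 on the log2 scale (SE, limma, adjusted p = 0.0319). The fall of Slit1 was not called without old replicate 4, 5 or 6 or rejuvenated old replicate 5 (limma, adjusted p = 0.0511, 0.0768, 0.0559 and 0.0666).

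Robo1, a receptor of the Slits, was almost absent from young MSCs. Its counts there were 0.00, 0.996, 0.00, 0.00, 0.00 and 0.00, against 751.6, 838.9, 785.3, 787.1, 784.7 and 751.3 in old MSCs and 544.7, 573.0, 509.0, 587.2, 505.7 and 610.3 in rejuvenated old MSCs. No young library held more than 1 read, so against a floor of 3 reads per library Robo1 was at least 248.3-fold lower in young than in old MSCs (limma, adjusted p = 1.09e-24). It fell by 0.50 ± 0.14 on the log2 scale after co-culture, without overlap (SE, limma, adjusted p = 0.00617). With a pseudocount of 0.5 this fall of Robo1 was not called (-0.50, limma, adjusted p = 0.0513). Both limma fits share 1 estimate of the spread over the 3 groups, among them the young libraries near 0. The fall was called by edgeR and by DESeq2. Robo2, 844.5 kb away on chromosome 16, was low in all groups and also lower in young MSCs (17.9, 51.2 and 40.2, or -1.48 and, less the median of chromosome 16, -0.73), and was not called after co-culture (-0.31).

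Srgap1, a GTPase-activating protein that binds Robo1, had 15.7, 1262 and 781.6 normalized counts in young, old and rejuvenated old MSCs, or -6.30 and -0.70 against old MSCs. Its relative Srgap3 had 3716, 2368 and 2371 and was higher in young MSCs.

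The netrins differed from each other. Ntn1, the classical netrin, had 380.9, 361.6, 343.0, 354.3, 394.4 and 386.1 normalized counts in young MSCs, 280.7, 285.5, 274.7, 313.6, 333.2 and 298.2 in old MSCs, and 217.3, 216.2, 201.7, 249.2, 208.6 and 267.0 in rejuvenated old MSCs. It was higher in young MSCs (0.31 ± 0.07, SE) and lower in rejuvenated old MSCs (-0.40 ± 0.07, SE, limma, adjusted p = 0.000107), with no overlap. Rejuvenated old MSCs thus lay further from young MSCs than old MSCs did.

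Ntn3 was far higher in young MSCs than in the other groups. It had 419.0, 418.4, 395.6, 411.0, 435.9 and 400.6 normalized counts there, 23.7, 20.7, 18.3, 20.0, 14.0 and 18.3 in old MSCs, and 35.0, 24.5, 16.2, 26.1, 18.6 and 18.9 in rejuvenated old MSCs. Young MSCs were 21.6 times higher than old MSCs (4.38 ± 0.15, SE, limma, adjusted p = 1.01e-17), and old and rejuvenated old MSCs overlapped. Ntn3 shares 89 bases (1.7% of its exon length) with Tbc1d24 on the same strand, which averaged 797.6 normalized counts. Whether reads of Tbc1d24 were counted for Ntn3 was not tested. Ntn4, a netrin of basement membranes, was lower in young MSCs (30.9, 85.3 and 88.6).

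The netrin receptors Unc5a, Unc5b and Unc5c, which are known to mediate repulsion, all fell after co-culture (20.6% of all genes fell). Unc5a had 1.09, 0.00, 0.00, 0.00, 0.00 and 0.00 normalized counts in young MSCs, 157.0, 162.5, 147.6, 154.5, 157.6 and 164.5 in old MSCs, and 101.9, 86.8, 85.6, 90.8, 90.3 and 87.7 in rejuvenated old MSCs. Like Robo1, it had at most 1 read in a young library, which makes it at least 49.9-fold lower there than in old MSCs (limma, adjusted p = 7.17e-21). The fall after co-culture was 0.79 ± 0.17 on the log2 scale, without overlap (SE, limma, adjusted p = 0.000693). Unc5a shares 34 bases (0.8% of its exon length) with Hk3 on the opposite strand, which averaged 100.8 normalized counts. Whether reads of Hk3 were counted for Unc5a was not tested.

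The starts of Robo1 and Unc5a are shown as the pair of guidance genes with almost no reads in young MSCs (RefSeq, GRCm38.p6, same window, plus strand, CG dinucleotides in capitals). The window of Robo1 is chr16:72662899-72663198, at a start 635631 bases inside the gene, and that of Unc5a is chr13:54949161-54949460, at a start 4260 bases inside it.
Robo1: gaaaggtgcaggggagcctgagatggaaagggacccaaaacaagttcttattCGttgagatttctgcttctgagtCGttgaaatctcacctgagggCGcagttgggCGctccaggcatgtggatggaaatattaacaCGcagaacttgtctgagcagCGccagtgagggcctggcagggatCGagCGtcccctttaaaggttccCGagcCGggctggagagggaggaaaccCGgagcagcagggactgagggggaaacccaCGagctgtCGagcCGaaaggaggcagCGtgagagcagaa
Unc5a: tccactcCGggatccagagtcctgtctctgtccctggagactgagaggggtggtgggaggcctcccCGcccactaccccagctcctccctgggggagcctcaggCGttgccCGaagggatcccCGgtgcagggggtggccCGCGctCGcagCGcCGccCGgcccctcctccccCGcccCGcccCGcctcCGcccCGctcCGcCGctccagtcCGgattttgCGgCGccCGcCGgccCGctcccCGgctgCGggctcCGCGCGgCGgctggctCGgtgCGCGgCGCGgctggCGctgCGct
The windows differ in base composition, with 15 CG dinucleotides and 57.0% G or C in Robo1 and 37 and 78.3% in Unc5a.

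Unc5c fell most of the Unc5 receptors after co-culture, and was not called between young and old MSCs. Its counts were 161.1, 119.5, 210.1, 179.2, 191.8 and 195.6 in young MSCs, 209.7, 237.3, 189.6, 209.1, 163.6 and 165.5 in old MSCs, and 113.3, 123.7, 104.7, 101.4, 75.4 and 85.8 in rejuvenated old MSCs. Old and rejuvenated old MSCs did not overlap (-0.96 ± 0.13, SE, limma, adjusted p = 5.93e-06), whereas young and old MSCs did (-0.16 ± 0.13, SE, limma, adjusted p = 0.267).

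Unc5b, the highest Unc5 receptor, had 541.9, 616.6, 605.6, 590.2, 704.5 and 720.8 normalized counts in young MSCs, 2828, 3030, 3081, 3154, 3186 and 3161 in old MSCs, and 2838, 2891, 2755, 2833, 2519 and 2674 in rejuvenated old MSCs. Young MSCs were 4.88 times lower than old MSCs (-2.29 ± 0.06, SE, limma, adjusted p = 1.1e-20). Its fall after co-culture was small and overlapping (-0.16 ± 0.06, SE, limma, adjusted p = 0.0254), and was not called without old replicate 4 or 5 or rejuvenated old replicate 5 (adjusted p = 0.0501, 0.0536 and 0.0666 by limma). Of the other netrin receptors, neogenin (Neo1) had 3216, 4074 and 3250 and fell after co-culture (-0.33), and Dcc was at 0 in all young and rejuvenated old libraries and reached at most 0.985 in old ones.

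**Figure D5:**
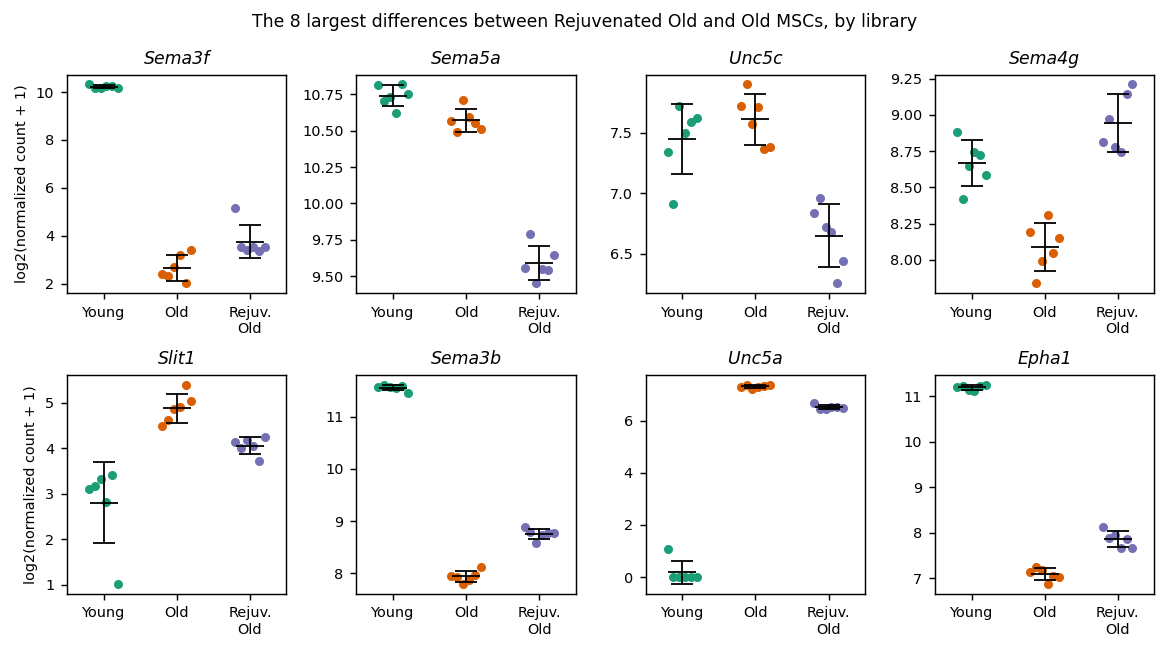
log2(normalized count + 1) of the 8 called guidance genes with the largest absolute log2 fold change between rejuvenated old and old MSCs, 1 point per library, with the mean and SD of 6 libraries in black, and young MSCs for reference. Old and rejuvenated old libraries overlap only for Sema3f, and Sema5a, Unc5c, Slit1 and Unc5a are lower after co-culture.

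Co-receptors, effectors and proteases of these pathways were read from 3 lists. The first list held 30 co-receptors and other guidance cues. Of these, 29 were found by symbol (all but Hjv), and 20 reached the mean of 10 and were tested. Of the 20, 2 rose (10%, against 21.0% of all genes) and 12 fell (60.0%, against 20.6%) after co-culture, with a median of -0.25. Flrt2 and Flrt3, membrane proteins that bind Unc5 receptors, fell most, with 1013 against 433.7 normalized counts for Flrt2 and 19.5 against 9.34 for Flrt3 in old and rejuvenated old MSCs (-1.23 and -1.09). In young against old MSCs 11 of the 20 were higher (55.0%, against 41.6% of all genes) and 9 were lower (45.0%, against 44.1%), among them Rgma, a ligand of neogenin (4154 against 272.1, or 3.93), and Draxin, a ligand of Dcc (9.91 against 534.9, or -5.67).

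Of 53 cytoplasmic effectors tested, 12 rose (22.6%, near the 21.0% of all genes) and 21 fell (39.6%, against 20.6%) after co-culture, with a median of -0.07. In young against old MSCs 16 were higher (30.2%, against 41.6%) and 34 lower (64.2%, against 44.1%), with a median of -0.26. Dpysl3, a collapsin response mediator that acts on the cytoskeleton below plexins, fell from 1260 to 558.0 normalized counts (-1.20), near its young level of 508.4. Ablim1, an actin-binding protein, rose from 536.6 to 944.5 (0.81), with 1314 in young MSCs.

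Among 12 proteases and matrix partners, 1 rose (8.3%, against 21.0% of all genes) and 9 fell (75.0%, against 20.6%) after co-culture, with a median of -0.24. In young against old MSCs 5 were higher (41.7%) and 6 lower (50%), near the 41.6% and 44.1% of all genes, with a median of -0.18. Adam10, a protease that sheds ephrins and other guidance proteins, fell from 997.9 to 563.7 normalized counts (-0.85), and Dag1, a binding partner of Slits in the matrix, fell from 1169 to 760.4 (-0.63). Mmp14 fell from 36238 to 27617 (-0.39) and had 15912 in young MSCs. Medians over all 14353 genes were 0.01 after co-culture and -0.02 in young against old MSCs.

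Of the 54 differences between young and rejuvenated old MSCs, 7 depended on the fit. Efna4 (-0.16) and Sema3d (-0.60) were no longer called by limma with quantile normalization (adjusted p = 0.183 and 0.19) or the same total per library (0.356 and 0.0611), and Sema3g (-0.71) with quantile normalization (0.108). Efna4 also lost the call without young replicate 1, 4, 5 or 6 or rejuvenated old replicate 2, 4 or 5, with adjusted p up to 0.115 by limma. Sema3d lost it without young replicate 6, where the difference was -0.37, or rejuvenated old replicate 1 or 2 (limma, adjusted p = 0.104, 0.0522 and 0.089). Sema3g lost it without young replicate 3 or 5 or rejuvenated old replicate 1, 2 or 4, with adjusted p up to 0.0723 by limma. Plxna3 (0.18) lost it without young replicate 1 or rejuvenated old replicate 4 (adjusted p = 0.0648 and 0.0777 by limma). Sema4a (0.50) lost it without young replicate 1 (limma, adjusted p = 0.0572), and Sema6b (0.31) without young replicate 3 or 6 or rejuvenated old replicate 2 (limma, adjusted p = 0.0606, 0.05 and 0.0518). Sema4g, given above, was the other.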

How the data were processed

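RNA from 18 cultures of mouse MSCs was sequenced by the authors with a stranded mRNA kit, aligned to mm10 with HISAT2, and assembled and counted with StringTie and featureCounts (versions, annotation and strand setting are not given in the sources used here). The deposited signal is the number of reads of a gene divided by 1 size factor per library (DESeq2, by the authors). Each library's step gave whole reads for 100% of values (tolerance 0.01). All 18 columns were used and 0 were left out. Replicates were not pooled. The labels call the libraries biological replicates but do not say whether animals or cultures differ, so p-values measure the spread between libraries, which may be technical.

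Genes with a mean of at least 10 (14353) were tested as log2(value + 1) with limma 3.58.1 in R 4.3.3, all 3 groups in 1 fit with a trended prior, and p adjusted by Benjamini-Hochberg over all of them and called under 0.05. Fold changes on this scale understate the change of low genes. The floor was 3 reads per library, and folds against a group whose libraries all lay at or under it are lower bounds, which cover counting error only. edgeR 4.0.16 and DESeq2 1.42.0 on the recovered reads, other scalings, filters and pseudocounts, 2-group fits, a replicate block, a single prior variance, stricter thresholds, subtraction of chromosome medians and leaving out each library were alternatives. The test was tried on simulated data. Positions are from RefSeq GRCm38.p6 and exon lengths from GENCODE M21 on the same build. Tables were handled with Python 3.11.15, pandas 2.3.3 and numpy 2.4.6, and figures drawn with matplotlib 3.10.9.

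Every guidance gene is named with its group levels. Values in every library are given for the 8 called genes with the largest absolute fold change in each comparison and for the highest gene of each family per kilobase. The guidance genes, lists and tests were chosen with earlier results of these data known.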

Additional observations from a re-analysis of the deposited data

Results flagged for a closer look

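In 13 of the 162 groups of 6 libraries (54 genes in 3 groups), the highest or lowest library lay apart from the nearest of the others by more of the group's range than Dixon's 95% limit, which chance passes in about 1 of 20 groups. Rejuvenated old replicate 1 was the highest in 4 of them. It had 513.9 normalized counts of Sema3a (others 138.8 to 170.0), 35.0 of Sema3f (others 9.31 to 10.6), 18.5 of Sema6a (others 4.66 to 7.55) and 101.9 of Unc5a (others 85.6 to 90.8). Rejuvenated old replicate 4 had 112.0 of Sema6b (others 73.6 to 86.6).

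Young replicate 1 was the lowest in Sema3a (11373, others 12003 to 12318) and the highest in Sema6a (26.1, others 12.4 to 17.2) and in Unc5a (1.09, others 0). Young replicate 2 was the lowest in Efnb2 (1831, others 2004 to 2102) and the highest in Robo1 (0.996, others 0). Each of these values of Unc5a and Robo1 is 1 read. Young replicate 6 was the lowest in Sema3d (8.24, others 20.3 to 26.3). Among old libraries, replicate 4 was the highest in Sema4c (1433, others 1225 to 1274) and replicate 3 in Epha2 (795.0, others 675.3 to 716.2).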

How the results depend on the processing

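The counts of guidance genes called (34, 50 and 54 for rejuvenated old against old, young against old and young against rejuvenated old MSCs) stayed within 1.5 times of these values under every alternative with a test except an added limit of 1 on the absolute log2 fold change, which left 1, 29 and 29. Leaving out 1 library at a time gave 31 to 36, 50 to 50 and 50 to 54. edgeR and DESeq2 on whole reads both gave 36, 50 and 54. Same-numbered libraries did not deviate together (r from -0.152 to 0.074, with 0 of 6 pairs over 0.1 in each comparison). Whether the design paired them by number is not given, and these correlations cannot tell. With the replicate number as a block the counts were 33, 50 and 53. Subtracting the median of the chromosome has no test and gives no count. It turned the young-to-old difference of Sema4c to 0.12 and of Sema5a to -0.03, and the difference between young and rejuvenated old MSCs of Sema4c to 0.21, of Plxna2 to 0.15 and of Ephb3 to 0.08.

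Sema4d, Sema6d, Sema4c, Sema6c, Sema3g and Plxna4 were called between rejuvenated old and old MSCs under at least 1 alternative. Rescaling moved the median of all genes by under 0.1 on the log2 scale. Calls rest on 6 libraries per group. Slit1, Sema3g and Plxna4 had few reads, and the part of depth in their calls was not tested.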
